A study of Homo sapiens with 32 samples.

Results

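TMD8 is an established human cell line of diffuse large B-cell lymphoma (DLBCL) of the activated B cell type. It was treated for 24 h with 500 nM of the compound labelled CSKi, which inhibits the kinase CSK, or with DMSO as the vehicle, and its polyadenylated RNA was sequenced in duplicate. The response at 24 h is described over all genes whose deposited log2 value averaged 5 or more over these 4 libraries, which gave 12158 of the 25066 features in the table. Of these 12158 genes, 11933 were among the 12000 features with the highest mean over all 16 TMD8 libraries, on which the tests were run, and 225 were not. At the edge of this rule, RUFY4 (mean 5.00) and CLYBL (5.00) were just inside, and C8orf58 (4.997) and LYRM4-AS1 (4.999) just outside. The study also treated TMD8 for 1, 3 and 6 h, each with 2 CSKi and 2 DMSO libraries, and treated the line DOHH2 in the same way, 32 libraries in all. The labels give every cell as engineered with Cas9, controls included, name no guide, and do not say whether the cells are 1 clone. All groups were grown in advanced RPMI with 5% FBS, antibiotics and glutamine. The comparison asks which transcripts differ after a day of CSK inhibition, and which of these differences were already present earlier.

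CSK places a phosphate on the tail tyrosine of the Src family kinases, which holds these kinases in an inactive shape. In B cells the main Src family kinase, LYN, acts in both directions: it phosphorylates the CD79A and CD79B signalling tails of the B cell receptor, and also the tails of inhibitory receptors such as CD22 and FCGR2B, which recruit the phosphatases PTPN6 (SHP-1) and INPP5D (SHIP1). Lymphomas of the activated B cell type depend on lasting signals from the B cell receptor and from MYD88 to NF-kB, and many of them secrete IL6 and IL10, which act back on the cells through STAT3.

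A value in the table is the log2 of a read count multiplied by 1 factor per library, and is called a log2 value below. A difference is the mean of 2 CSKi libraries minus the mean of 2 DMSO libraries on this scale, with the standard error (SE) of the fit after ±, and n = 2 and 2 throughout. A gene rose or fell where its Benjamini-Hochberg adjusted p was under 0.05 in limma, fitted on the 16 TMD8 libraries. The DMSO libraries at 24 h held 14401850 and 20745503 mapped reads and the CSKi libraries 14309710 and 14018456, and duplicates correlated across genes with r = 0.996 for DMSO and 0.994 for CSKi. The titles call the duplicates bio replicates and say no more, so p-values measure the spread between these libraries, which may be technical in part. In bulk RNA, fewer cells of a state and less RNA per cell cannot be told apart. All 10 B cell and activated B cell markers in the table were detected, and CD3D, CD3E, CD3G, CD2, S100A8, MPO, COL3A1, EPCAM, KRT18 and KRT19 had no read in any of the 4 libraries.

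After 24 h, transcripts of DNA replication and of chaperones, of STAT3 and its feedback inhibitor SOCS3, and of cytokines and early response factors such as IL10, IL6 and EGR2 were lower with CSKi. Transcripts of the B cell receptor pathway, of FOXO targets, of interferon response genes and of ribosomal proteins were mostly higher. With the libraries of DOHH2 in the fit, however, only 7 of the 33 interferon response genes tested rose. In all, 3330 of the 11933 genes tested rose and 3132 fell. Over all 12000 features tested, 54% were called, 27.9% rising and 26.2% falling. Every count of list members below is to be read against these shares. More features rose than fell in this fit, but that order depended on the scaling. Quantile normalization gave 3088 higher and 3400 lower, and median of ratios scaling 3228 and 3270. Total mapped reads scaling gave 2912 higher and 3628 lower, and voom on recovered reads 2908 and 3590. Most differences were small: 991 genes rose and 470 fell at least 1.5-fold, where 8.38% and 3.99% of all features did, and 244 rose and 73 fell at least 2-fold. Of the genes called, 3303 of 3330 that rose and 3105 of 3132 that fell had both CSKi values outside the range of both DMSO values. Over all 11933 genes, called or not, both CSKi values lay above both DMSO values in 4606 (38.6%) and below in 4184 (35.1%). The SD of the log2 difference over genes was 0.183 between the DMSO duplicates, 0.223 between the CSKi duplicates and 0.408 between the group means.

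**Figure D1:**
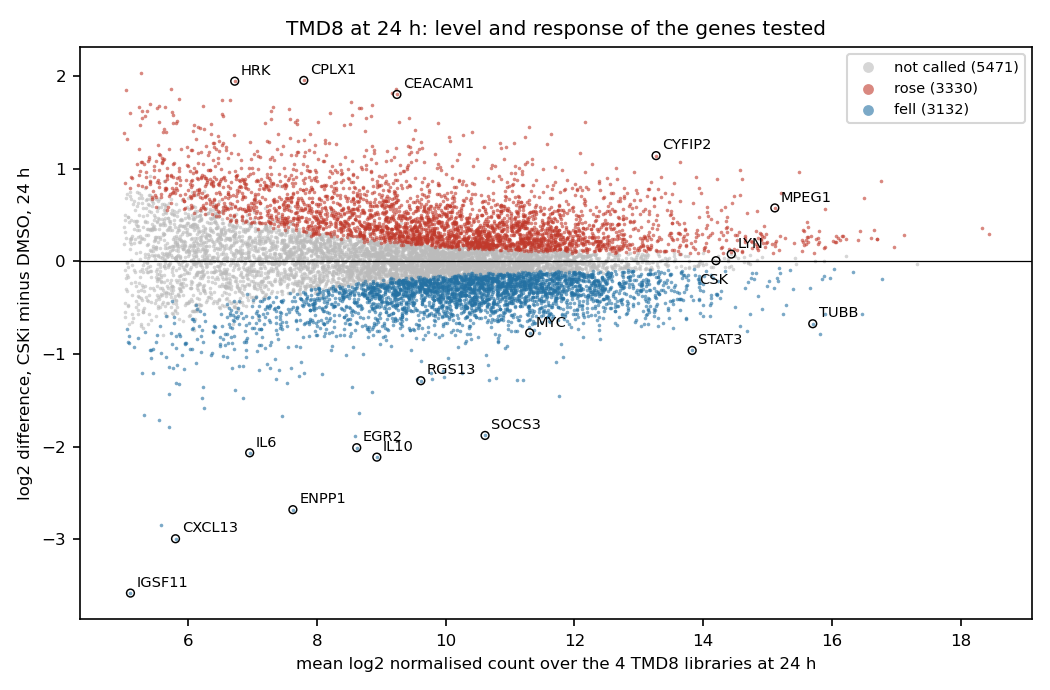
Log2 difference of CSKi minus DMSO at 24 h (vertical axis) against the mean log2 value over the 4 libraries (horizontal axis) for 11933 genes, 1 point each, red where the gene rose (3330), blue where it fell (3132) and grey where it was not called (5471). Falls reach further from 0 than rises, with IGSF11 at -3.58, and CSK and LYN lie near 0.

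The direction of the response varied with the base composition of the transcripts. Median transcript GC content was 53.2% for genes that rose and 45.3% for genes that fell. Among the 20% of genes with the lowest GC content 13.8% rose and 36.8% fell, and among the 20% with the highest 40.7% rose and 17.2% fell. Across 11235 genes with a known GC content, the response correlated with it (Pearson r = 0.247, Spearman rho = 0.262). GC content also separated duplicates, which received the same treatment: its rho was 0.581 with the difference of CSKi replicate 1 minus replicate 2 and 0.240 with that of the DMSO replicates. All 4 of these are descriptions across genes of the same libraries. After a correction of each library for GC content and length, chosen after the data were seen, 6423 features were called, 2861 higher and 3562 lower, and 5244 of them were among the 6486 of the uncorrected fit. Named genes whose values moved by over 1.5 times with this correction are marked below as corrected values, and so are lists whose counts or medians did.

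**Figure D2:**
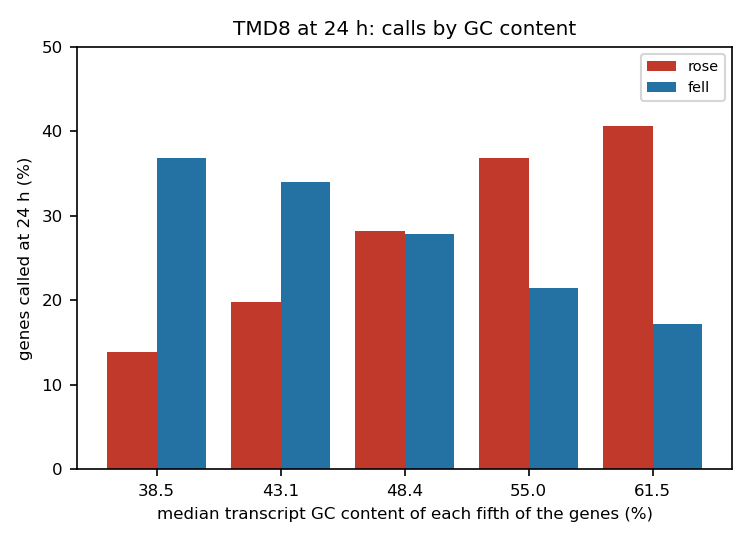
Percent of genes that rose (red) and fell (blue) at 24 h in each of 5 equal bins of 11235 genes ordered by transcript GC content, labelled by the median GC content of the bin. The share that rose goes from 13.8 to 40.7% and the share that fell from 36.8 to 17.2% with rising GC content.

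In DMSO, CSK had log2 values of 14.20 and 14.19, and in CSKi 14.25 and 14.16. The transcript of the inhibited kinase itself was thus nearly equal in all 4 libraries, with a difference of 0.01 ± 0.03 (adjusted p = 0.874 in limma); CSKi targets the protein, so its mRNA does not check the treatment. With the GC content and length correction CSK was at -0.17 (adjusted p = 1.5e-05 in limma) and LYN at 0.04. LYN was at 0.08 ± 0.04 (adjusted p = 0.072 in limma), and was called with the replicate number as a block and without CSKi replicate 2 (0.12). Of 20 Src family kinases and regulators tested, 8 rose and 6 fell, and the median was 0.09 (0.15 without CSKi replicate 1), beside 0.02 over all features tested. PTPRC, the CD45 phosphatase that removes the inhibitory tail phosphate, rose (0.48 ± 0.03), as did the ubiquitin ligase gene CBLB (0.84 ± 0.06). PTPN6 had log2 values of 14.46 and 14.47 in DMSO, against 14.08 and 14.05 in CSKi. PTPN6 therefore lay lower in both CSKi libraries than in either DMSO library (-0.40 ± 0.03). SRC (-0.80) and YES1 (-0.57) fell as well; they and the other list members given by difference alone were picked from the lists after their values were seen.

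The deepest falls were in genes of cytokines, secreted or surface proteins and early response factors. IGSF11 stood at 6.77 and 7.03 in the DMSO libraries and at 3.32 and 3.32 in the CSKi libraries (log2 values). These correspond to 57 and 99 reads in DMSO and 5 and 5 in CSKi. IGSF11 (Gene ID 152404), an adhesion protein of the immunoglobulin superfamily, was 12-fold lower (-3.58 ± 0.27, adjusted p = 4.6e-11 in limma). CXCL13 was at log2 values of 7.32 and 7.28 in DMSO and 4.45 and 4.16 in CSKi. The 2 CSKi libraries held 11 and 9 reads of CXCL13 (Gene ID 10563), the chemokine that draws CXCR5-bearing B cells into follicles, which was 7.97-fold lower (-2.99 ± 0.24, adjusted p = 1.1e-10 in limma). Next came CACNA1D, a voltage-gated calcium channel subunit, 7.21-fold lower on 8 and 10 reads in CSKi (-2.85 ± 0.31). In DMSO, ENPP1 had log2 values of 8.95 and 8.98, and in CSKi 6.45 and 6.12. ENPP1, an ectoenzyme that cleaves extracellular nucleotides, was 6.41-fold lower (-2.68 ± 0.14, adjusted p = 4.7e-14 in limma). In each of these 4 genes both CSKi values lay below both DMSO values by at least 2 log2 units.

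IL10 had log2 values of 9.92 and 10.05 in DMSO, against 7.83 and 7.92 in CSKi. IL10, the cytokine that activates STAT3 through its own receptor, was 4.33-fold lower (-2.11 ± 0.15, adjusted p = 1.1e-11 in limma). IL6 stood at 7.93 and 8.05 in the DMSO libraries and at 5.95 and 5.90 in the CSKi libraries (log2 values). IL6 fell by a like amount, 4.19-fold (-2.07 ± 0.25, adjusted p = 1.4e-07 in limma), and the groups did not overlap in either cytokine gene. TNF was at log2 values of 9.56 and 9.58 in DMSO and 7.97 and 8.34 in CSKi. TNF was 2.66-fold lower (-1.41 ± 0.12). EBI3, a subunit of the cytokines IL27 and IL35, was 3.17-fold lower (-1.67 ± 0.14). Of 14 cytokine and chemokine genes tested, 7 fell and 4 rose (median -0.36, which was -0.54 without CSKi replicate 1 and -0.20 without CSKi replicate 2); the risers were the membrane ligands TNFSF9 (0.47), LTB (0.60) and TNFSF4 (0.75), and IL16 (0.66 ± 0.04), a chemoattractant released from a precursor.

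In DMSO, STAT3 had log2 values of 14.30 and 14.32, and in CSKi 13.35 and 13.35. The duplicates of STAT3 (Gene ID 6774) differed by at most 0.02, and the transcription factor was 1.95-fold lower with CSKi (-0.96 ± 0.04, adjusted p = 7.9e-16 in limma). SOCS3 had log2 values of 11.54 and 11.56 in DMSO, against 9.74 and 9.61 in CSKi. SOCS3, induced by STAT3 and an inhibitor of the kinases that activate it, was 3.68-fold lower (-1.88 ± 0.07, adjusted p = 2.2e-16 in limma). Over the 20 genes tested of the STAT3 and SOCS list, 8 fell and 7 rose, with a median of -0.03 (-0.15 corrected, -0.08 without DMSO replicate 1 or CSKi replicate 2, and -0.00 without DMSO replicate 2). STAT5A (-0.71), SOCS1 (-0.44) and the kinase gene PIM3 (-0.52) fell, while the receptor chains IL6R (0.64), IL10RA (0.57 ± 0.04) and IL10RB (0.47), and the kinase gene PIM2 (0.52 ± 0.04), rose.

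**Figure D3:**
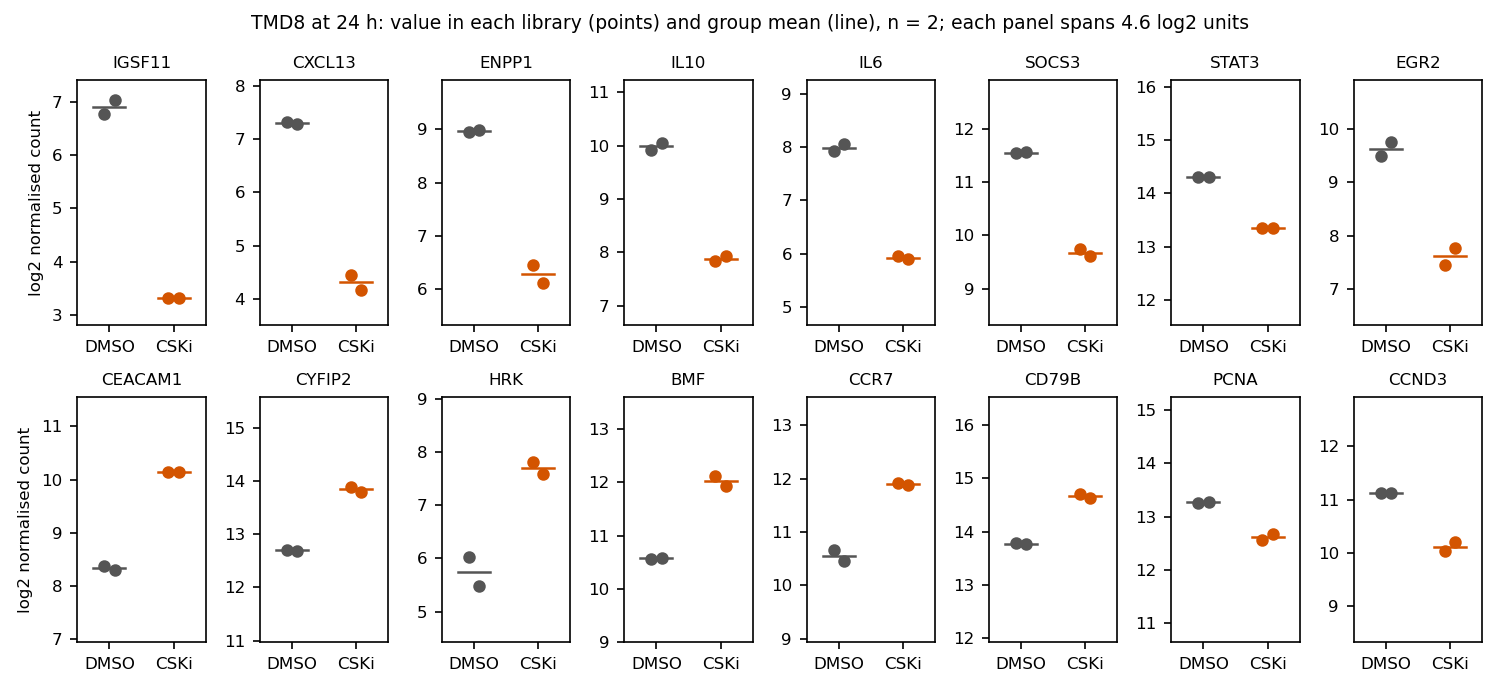
Log2 value of 16 genes in each library at 24 h (points; DMSO grey, CSKi orange) with the mean of each group of 2 (line); every panel spans the same 4.6 log2 units. In all 16 panels both CSKi values lie outside the range of the DMSO values, from IGSF11, 12-fold lower, to HRK, higher by 1.945 on the log2 scale.

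EGR2 stood at 9.50 and 9.75 in the DMSO libraries and at 7.45 and 7.78 in the CSKi libraries (log2 values). EGR2, a zinc finger factor induced within minutes to hours of receptor signalling, was 4.03-fold lower (-2.01 ± 0.17, adjusted p = 2.7e-10 in limma). Of 21 immediate early genes tested, 10 fell and 3 rose, and the median was -0.17. The rises numbered 1 without DMSO replicate 2, without CSKi replicate 1 or with the GC content and length correction, and 5 without CSKi replicate 2, where the median was -0.11. JUN was 2.27-fold lower (-1.18 ± 0.07), EGR1 (-1.11) and EGR3 (-0.94) fell with it, and JUND, the constitutive member of the JUN family, rose (0.83 ± 0.06). MYC was at log2 values of 11.64 and 11.74 in DMSO and 10.98 and 10.86 in CSKi. MYC, the growth regulator, was 1.71-fold lower (-0.77 ± 0.06, adjusted p = 4.5e-11 in limma). Of 10 genes tested of the ERK feedback list, 5 fell and 1 rose, with a median of -0.53 (-0.37 without CSKi replicate 1). The transcription factor genes ETV4 (-1.59 ± 0.25) and ETV5 (-0.94) were lower. So were PHLDA1 (-1.25 ± 0.08), the phosphatase gene DUSP2 (-1.20 ± 0.10) and the G protein regulator RGS2 (-0.82 ± 0.09), and DUSP5 (0.74 ± 0.05) was higher. ETV4 was 1 of 9 named genes that lost the call when the libraries of DOHH2 entered the fit.

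NF-kB genes were divided. Of 32 NF-kB subunits and targets tested, 14 fell and 8 rose (median -0.10), and the rises were 3 without DMSO replicate 2, 5 without CSKi replicate 1 and 5 with the GC content and length correction, where the median was -0.20. NFKBIA, the inhibitor that NF-kB induces against itself, fell (-0.78 ± 0.05), together with the activation marker CD83 (-0.65 ± 0.05) and the plasmablast factor IRF4 (-0.52 ± 0.03). In DMSO, CCR7 had log2 values of 10.67 and 10.45, and in CSKi 11.93 and 11.88. CCR7, the receptor for lymph node homing, was 2.54-fold higher (1.34 ± 0.06, adjusted p = 1.1e-15 in limma), the widest rise in the list. The subunit genes NFKB1 (-0.31) and REL (-0.24) fell, whereas RELB (0.37) and NFKB2 (0.12) of the alternative pathway rose.

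The widest rises were in genes of diverse function, many at low levels. Among the 15 with the largest fold change, SLC16A8, a lactate transporter, led with 4.09-fold (2.03 ± 0.34), on 12 and 12 reads in DMSO and 45 and 34 in CSKi. CPLX1 had log2 values of 6.98 and 6.67 in DMSO, against 8.88 and 8.67 in CSKi. CPLX1, a regulator of vesicle fusion, was 3.87-fold higher (1.95 ± 0.16, adjusted p = 1.8e-10 in limma). CEACAM1 stood at 8.38 and 8.31 in the DMSO libraries and at 10.14 and 10.15 in the CSKi libraries (log2 values). CEACAM1 (Gene ID 634), an adhesion receptor whose tail recruits SHP-1, was 3.49-fold higher (1.80 ± 0.07, adjusted p = 6.8e-16 in limma) on 174 to 569 reads, with duplicates within 0.07 of each other. Also among the 15 were LY9, a SLAM family receptor of lymphocytes (1.70 ± 0.30), ADA2, a secreted adenosine deaminase (1.68 ± 0.11), the scavenger receptor gene SCARF1 (1.86 ± 0.33), the phospholipase gene PLA2G2D (1.68 ± 0.26), the cytochrome P450 gene CYP2W1 (1.82 ± 0.18), the vesicle trafficking gene SYTL1 (1.74 ± 0.22), and NTN3 (1.75 ± 0.28), IZUMO4 (1.86 ± 0.15), SLC6A16 (1.72 ± 0.11) and MYO15B (1.85 ± 0.33). LOC339047 (1.74 ± 0.46), a feature of a repeated family, rested on single libraries: it was at 1.06 without CSKi replicate 1 and 1.27 without DMSO replicate 1, and not called in either fit. The other 6 of the 15 widest falls were the gap junction gene GJA1 (-1.88 ± 0.15), the microRNA host gene MIR155HG (-1.64 ± 0.11), the coreceptor gene BOC (-1.65 ± 0.33), KIAA1549L (-1.79 ± 0.27), SNORC (-1.71 ± 0.31) and ETV4, given above.

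Genes of the B cell receptor pathway rose together. Of 27 tested, 19 rose and none fell in limma (VAV3 and PIK3AP1 were below 0, and only PIK3AP1 at an unadjusted p under 0.05), with a median of 0.31, and 6 rose at least 1.5-fold. CD79B was at log2 values of 13.78 and 13.77 in DMSO and 14.71 and 14.63 in CSKi. CD79B, the signalling chain that is often mutated in this lymphoma type, was 1.86-fold higher (0.89 ± 0.04, adjusted p = 7.9e-16 in limma), beside CD79A (0.46). The exchange factor gene VAV2 (0.67 ± 0.04), the adaptor gene BLNK (0.59 ± 0.04), the tetraspanin gene CD81 (0.65 ± 0.04, and 0.39 with the GC content and length correction) and the kinase gene SYK (0.39) rose, and BTK (0.01) and MALT1 (0.00) were not called. With the GC content and length correction 18 rose and 2 fell, and without CSKi replicate 2 17 rose and 2 fell.

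Genes of the inhibitory and Fc receptor-like list moved both ways. Among 18 inhibitory and Fc receptor-like genes tested, 12 rose and 5 fell (median 0.36), and 2 fell when the libraries of DOHH2 entered the fit. Beside CEACAM1, the rises included the sialic acid receptor CD22 (0.42 ± 0.04), FCGR2B (0.66), FCRLA (0.89 ± 0.04), FCRL3 (0.58 ± 0.04) and FCRL1 (0.88). In DMSO, FCRL5 had log2 values of 14.78 and 14.73, and in CSKi 15.14 and 15.12. FCRL5, an Fc receptor-like protein with activating and inhibitory motifs, was higher in both CSKi libraries (0.38 ± 0.04, and 0.25 with the GC content and length correction). PDCD1, which encodes the checkpoint receptor PD-1 (-1.13), LAIR1 (-0.82), FCRL4 (-0.60) and CD274, which encodes PD-L1 (-0.53), fell.

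FOXO factors are kept out of the nucleus by PI3K and AKT signalling and otherwise induce genes of growth arrest and death. Of 18 FOXO factors and targets tested, 14 rose and 1 fell, with a median of 0.57. YPEL3 had log2 values of 8.99 and 8.95 in DMSO, against 10.18 and 10.12 in CSKi. YPEL3, a growth suppressor, was 2.27-fold higher (1.18 ± 0.07). FBXO32, a ubiquitin ligase subunit (1.43), FOXO4 (1.03), KLHL24 (0.90 ± 0.08), TXNIP (0.78 ± 0.06), which limits glucose uptake, and FOXO1 (0.54) rose, and KLF2 (-0.28) fell. Regulators of PI3K were mixed, with 9 of 23 rising and 5 falling (median 0.12). With the GC content and length correction 8 fell and the median was -0.02. The falls numbered 2 without DMSO replicate 2 (median 0.06) and 3 without DMSO replicate 1, and the median was 0.04 without CSKi replicate 1. Among the rises were INPP5D (0.50 ± 0.04, corrected 0.32), TSC1 (0.47 ± 0.05) and TSC2 (0.46 ± 0.05, corrected 0.23), which all limit the pathway, and the lipid phosphatase gene INPP4B (-0.79) fell. Of 22 quiescence factors of the KLF, ID and BTG families, 12 rose and 6 fell (median 0.20, corrected 0.11), with BTG1 (0.79 ± 0.05) and BTG2 (0.74 ± 0.03), antiproliferative partners of mRNA deadenylation, and the glucocorticoid-induced gene TSC22D3 (1.18) among the rises; KLF13 (0.31 ± 0.04) was at 0.10 with the correction.

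Members of the BCL2 family moved both ways. Of 17 tested, 8 rose and 5 fell (3 without DMSO replicate 2), with a median of 0.12 (corrected 0.04). HRK stood at 6.02 and 5.49 in the DMSO libraries and at 7.80 and 7.59 in the CSKi libraries (log2 values). HRK, a BH3-only protein that binds BCL2 and BCL-XL, was 3.85-fold higher (1.95 ± 0.23, adjusted p = 1.2e-07 in limma), on 34 and 34 reads in DMSO and 112 and 97 in CSKi. BMF was at log2 values of 10.56 and 10.59 in DMSO and 12.12 and 11.92 in CSKi. BMF, another BH3-only gene, was 2.72-fold higher on 792 to 2233 reads (1.45 ± 0.06, adjusted p = 2.4e-15 in limma). BCL2L11, which encodes BIM (0.59 ± 0.03), and BBC3, which encodes PUMA (0.66 ± 0.10, and 0.43 with the GC content and length correction), rose too. The survival gene BCL2 also rose (0.55 ± 0.04), and the pro-death gene BID (-0.59 ± 0.05) and the survival gene BCL2A1 (-0.38) fell. Of 24 p53 targets 9 rose and 4 fell (median 0.13, corrected 0.07); BBC3, BTG2 and ZMAT3 (0.42 ± 0.07) rose, and TIGAR fell (-0.43 ± 0.07, and -0.28 without CSKi replicate 1), as did MDM2 (-0.25).

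DNA replication genes fell almost throughout. Of 45 genes of replication and the G1/S transition tested, 41 fell and none rose in limma (2 were above 0, neither at an unadjusted p under 0.05), with a median of -0.51. In DMSO, CCND3 had log2 values of 11.12 and 11.13, and in CSKi 10.04 and 10.20. CCND3, a D-type cyclin that starts the cycle with CDK4 and CDK6, was 2.01-fold lower (-1.01 ± 0.06, adjusted p = 8.0e-13 in limma). PCNA had log2 values of 13.26 and 13.27 in DMSO, against 12.55 and 12.67 in CSKi. PCNA, the sliding clamp of the replication fork, fell (-0.66 ± 0.04), as did the thymidylate synthase gene TYMS (-0.69 ± 0.04) and the helicase subunit gene MCM4 (-0.62 ± 0.04). Of 37 mitosis and G2/M genes 34 fell and none rose (2 were above 0), with a smaller median of -0.33; CDK1 (-0.60 ± 0.07), CCNA2 (-0.59 ± 0.06), CCNB1 (-0.42 ± 0.04) and UBE2C (-0.45 ± 0.04) were lower in both CSKi libraries. The proliferation marker MKI67 fell by 0.19 on the log2 scale.

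Histone genes went the other way, 12 of 19 rising and 4 falling (median 0.54), and 6 rising when the libraries of DOHH2 entered the fit. Those that rose were mostly canonical cluster genes, such as H2AC11 (0.84 ± 0.08), H2BC5 (0.84 ± 0.06) and H2BC21 (0.83 ± 0.08), whose close copies can share reads and most of whose transcripts lack a poly(A) tail. The replacement variant genes H2AZ1, H2AX and H3-3B fell, H2AZ1 the most (-0.52 ± 0.03).

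Genes of growth and protein folding fell. Of 42 MYC targets and ribosome biogenesis genes, 36 fell and 4 rose (median -0.46), with 2 rising without DMSO replicate 2, without CSKi replicate 1 or with the correction. The nucleolar genes NOLC1 (-0.70 ± 0.04) and NCL (-0.57 ± 0.03), the transferrin receptor gene TFRC (-0.84 ± 0.04) and PA2G4 (-0.61 ± 0.04) fell, and the 4 that rose, MXD3 (0.23), MNT (0.30), MXI1 (0.47) and MXD4 (0.82), encode partners of MAX that oppose MYC. Of 18 heat shock chaperones 17 fell and none rose, and HSPA1B, the 1 not called, was at -0.01; the median was -0.52. HSPA8 stood at 16.18 and 16.22 in the DMSO libraries and at 15.35 and 15.48 in the CSKi libraries (log2 values). HSPA8, the constitutive HSP70, was 1.72-fold lower (-0.79 ± 0.04), and the mitochondrial chaperonin HSPD1 (-0.75 ± 0.04), the HSP90 gene HSP90AB1 (-0.57 ± 0.03) and its partner FKBP4 (-0.72 ± 0.04) fell with it.

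Cytosolic ribosomal protein genes rose by small amounts, 70 of 74 rising and 1 falling (median 0.22). RPL13A (0.37 ± 0.03), RPS27 (0.43 ± 0.04) and RPL15 (0.31 ± 0.03) were examples, and RPS26 (-0.43) fell; pseudogene copies can share reads with these genes. Under quantile normalization 48 rose and 6 fell and RPL13A was at 0 and not called, so the counts for these very abundant transcripts depended on the scaling. In the same libraries 28 of 41 nuclear genes of the respiratory chain fell and 2 rose (1 without either DMSO replicate or CSKi replicate 1, and 4 corrected; median -0.20), with cytochrome c (CYCS, -0.58 ± 0.05), ATP5MC3 (-0.44 ± 0.04), NDUFAB1 (-0.44 ± 0.05) and ATP5F1B (-0.29 ± 0.03) lower.

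Metabolic and stress lists each held opposed groups. Of 35 glycolysis and hypoxia genes, 22 rose and 6 fell (median 0.35); the median was 0.21 without DMSO replicate 2 and 0.21 without CSKi replicate 1. ALDOC was at log2 values of 11.77 and 11.07 in DMSO and 13.13 and 12.71 in CSKi. The aldolase gene ALDOC was 2.83-fold higher (1.5 ± 0.13), although its duplicates lay 0.70 apart in DMSO. NDRG1 (1.49), PFKFB4 (1.03) and the demethylase gene KDM3A (0.85 ± 0.07), all induced by low oxygen, rose, while the oxygen-regulated factor gene HIF1A itself (-0.66 ± 0.05) and LDHB (-0.37 ± 0.03) fell. Of 36 ATF4 and amino acid response genes 21 fell and 6 rose (median -0.20): asparagine synthetase ASNS (-0.80 ± 0.07) and the tRNA synthetase genes TARS1 (-0.68 ± 0.04) and GARS1 (-0.58 ± 0.04) fell, and ATF5 (0.87 ± 0.07) rose. Of 29 unfolded protein and ER genes 14 fell, among them the chaperone genes PDIA6 (-0.59 ± 0.04), CANX (-0.50 ± 0.03) and HSPA5 (-0.46 ± 0.03), and 6 rose, among them the ubiquitin ligase gene SYVN1 (0.64 ± 0.04) and the sensor gene ERN1 (1.12). Of 30 cholesterol and fatty acid synthesis genes 12 rose and 4 fell (median 0.15, and 0.10 without DMSO replicate 2); the sterol enzymes LSS (0.86 ± 0.05) and MVD (0.59 ± 0.07) and the regulator SREBF2 (0.43 ± 0.05, corrected 0.25) rose, and FASN of the fatty acid branch fell (-0.32 ± 0.04, and -0.63 with the GC content and length correction).

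Interferon response genes rose in 20 of 33 cases and fell in 4 (median 0.26). When the libraries of DOHH2 entered the fit, 7 rose and 1 fell, where 2698 and 2732 of all 12000 features did. In DMSO, OAS1 had log2 values of 10.95 and 10.94, and in CSKi 12.31 and 12.33. OAS1, which makes the 2-5A messenger that activates RNase L, was 2.59-fold higher (1.37 ± 0.05, adjusted p = 1.5e-16 in limma). IFIT2 (1.21 ± 0.11), OAS2 (0.82 ± 0.05) and STAT2 (0.83 ± 0.05), a subunit of the ISGF3 factor, rose as well, and EIF2AK2 (-0.41) and GBP2 (-0.33) fell. Genes of the lysosome and autophagy rose in 19 of 32 cases and fell in 1 (median 0.19). With the GC content and length correction 3 fell and the median was 0.13, and 2 fell without CSKi replicate 2. GAA, the acid alpha-glucosidase (0.94), NPC2 (0.87 ± 0.08), PSAP (0.55 ± 0.04) and the autophagy receptor gene SQSTM1 (0.62 ± 0.05) rose, and the cathepsin gene CTSH fell (-0.52 ± 0.05).

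Promoters of these 2 lists were searched for letters of known elements. In the 250 bases before the start of transcription, given by RefSeq on GRCh38.p14 for 9289 of the 11933 genes, 6 motifs were searched on both strands: EGR (GCGTGGGCG), E-box (CACGTG), CRE (TGACGTCA), ISRE (GAAA, any 2 bases, GAAA), NF-kB (GGGA, any 4 bases, CC) and FOXO (TGTTTAC). The ISRE letters, bound by ISGF3, were in 12 of 24 promoters of the interferon list (50%) and in 3.07% of all 27305 promoters in the table. The E-box letters, the core of the element bound by TFEB and TFE3, were in 8 of 22 promoters of the lysosome list (36.4%) and in 6.49% of all promoters. Within the interferon list 7 of 12 genes with the ISRE letters rose and 7 of 12 without them, and within the lysosome list 4 of 8 genes with the E-box letters rose and 10 of 14 without. Among all genes that rose 3.13% held the ISRE letters and 9.34% the E-box letters, beside 2.73 and 9.87% of those that fell. These 2 lists were picked for printing after the shares of all lists were seen. Shown are the 2 genes of each list that rose with the smallest p and hold the letters, 5′ to 3′ on the coding strand with the motif in capitals; overlapping matches are joined.
OAS3 (chr12:112938224-112938473, + strand): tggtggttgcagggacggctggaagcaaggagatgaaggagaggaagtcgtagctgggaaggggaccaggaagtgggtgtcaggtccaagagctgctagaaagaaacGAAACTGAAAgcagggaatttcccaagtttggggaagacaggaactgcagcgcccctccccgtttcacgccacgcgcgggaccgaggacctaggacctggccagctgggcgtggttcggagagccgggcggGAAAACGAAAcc
ISG15 (chr1:1013247-1013496, + strand): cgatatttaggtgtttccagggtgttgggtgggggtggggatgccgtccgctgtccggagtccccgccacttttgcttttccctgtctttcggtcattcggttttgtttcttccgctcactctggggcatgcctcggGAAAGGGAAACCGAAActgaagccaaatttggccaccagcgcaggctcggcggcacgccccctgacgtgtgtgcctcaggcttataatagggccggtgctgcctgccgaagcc
GAA (chr17:80101331-80101580, + strand): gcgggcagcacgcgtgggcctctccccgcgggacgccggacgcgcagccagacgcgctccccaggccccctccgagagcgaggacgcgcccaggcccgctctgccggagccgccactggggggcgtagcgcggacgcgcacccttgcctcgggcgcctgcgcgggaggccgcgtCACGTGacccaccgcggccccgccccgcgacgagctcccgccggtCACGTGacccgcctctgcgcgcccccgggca
CTSA (chr20:45891085-45891334, + strand): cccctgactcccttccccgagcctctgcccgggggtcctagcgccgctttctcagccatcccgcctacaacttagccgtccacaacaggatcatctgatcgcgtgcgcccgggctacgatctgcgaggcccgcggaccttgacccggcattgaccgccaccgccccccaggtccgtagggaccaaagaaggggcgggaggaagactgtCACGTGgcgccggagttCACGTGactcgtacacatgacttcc
Positions are counted from the RefSeq start. Of the promoters checked, 32.5% had a transcript of the GENCODE annotation starting at the same base. OAS3 has its ISRE matches starting at bases -143 and -12 before the start and rose by 0.75. ISG15, the ubiquitin-like modifier, has overlapping matches starting at -113 and -107 and rose by 0.31. GAA has its E-box letters at -76 and -31, and CTSA, the protective protein cathepsin A, at -42 and -25; it rose by 0.20.

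Genes of B cell identity rose more often than they fell. Of 28 germinal centre and identity genes tested, 17 rose and 5 fell (3 without CSKi replicate 1; median 0.26, corrected 0.17). CD37 had log2 values of 15.03 and 14.97 in DMSO, against 16.03 and 15.91 in CSKi. The tetraspanin gene CD37 was 1.95-fold higher (0.97 ± 0.04), and the transcription factor genes ETS1 (0.74 ± 0.04), IRF8 (0.78 ± 0.05) and the coactivator POU2AF1 (0.92 ± 0.07) rose. RGS13 stood at 10.21 and 10.31 in the DMSO libraries and at 8.98 and 8.96 in the CSKi libraries (log2 values). RGS13, a G protein regulator of germinal centre cells (-1.29 ± 0.09), and the factor LMO2 (-1.28 ± 0.06) were 2.44-fold and 2.43-fold lower. Among 23 genes of the activated B cell type 9 rose and 7 fell (4 when the libraries of DOHH2 entered the fit), with BATF (-1.09 ± 0.06), STAT3 and IRF4 lower and LIMD1 (0.74 ± 0.04) and CREB3L2 (0.56 ± 0.04) higher. Of 16 plasma cell genes 7 rose and 6 fell (3 in that fit): MZB1, a chaperone of antibody secretion, was 2.00-fold higher (1.00 ± 0.05) and SDC1, which encodes CD138, was at -0.70. Of 21 activation markers 9 rose and 8 fell (4 in that fit), SLAMF6 (1.18) and the BAFF and APRIL receptor TNFRSF13B (0.69 ± 0.04) on one side and MIR155HG, TFRC and CD69 (-0.80) on the other.

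Genes of B cell migration, which comprise guiding receptors, G proteins and their RGS regulators, rose in 16 of 28 cases and fell in 5 (median 0.17). Beside CCR7, the cannabinoid receptor genes CNR2 (1.57) and CNR1 (1.28 ± 0.06) and the chemokine receptor gene CXCR4 (0.94 ± 0.08) rose, whereas CXCR5, the receptor for CXCL13, fell (-0.42). CYFIP2 was at log2 values of 12.71 and 12.69 in DMSO and 13.89 and 13.79 in CSKi. CYFIP2 (Gene ID 26999), a subunit of the WAVE complex that starts branched actin, had the smallest p of all genes at 24 h and was 2.21-fold higher (1.14 ± 0.04, adjusted p = 6.4e-17 in limma). Of the 41 integrin, adhesion and actin genes tested, CYFIP2 among them, 14 rose and 12 fell, where 27.9 and 26.2% of all features did. Their median of 0.06 was -0.01 with the GC content and length correction, 0.03 without DMSO replicate 2, 0.09 without DMSO replicate 1 and 0.13 without CSKi replicate 2; ICAM3 (0.57 ± 0.07) rose, and ARPC5 (-0.61 ± 0.06), CD44 (-0.30 ± 0.04) and the kinase gene PTK2 (-0.73) fell. Of 21 calcium and NFAT genes 12 rose and 3 fell (7 fell with the correction), with the channel genes ORAI2 (1.05 ± 0.05) and ORAI3 (0.77 ± 0.09), the pump gene ATP2A3 (0.74 ± 0.04) and ITPR2 (0.45 ± 0.04) higher.

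Antigen presentation and Toll-like receptor genes changed less. Of 19 MHC class II and antigen presentation genes 8 rose and 2 fell (5 corrected; median 0.11, and 0.06 without CSKi replicate 1); HLA-DMA (0.54 ± 0.06), which loads peptides, CTSS (0.46 ± 0.05) and CD74 (0.33 ± 0.03, and 0.14 under quantile normalization) rose and IFI30 fell (-0.41 ± 0.04), while HLA-DRA was at 0.03; reads of the HLA genes can be split between alleles and copies. Of 22 Toll-like receptor pathway genes 7 rose and 1 fell (3 corrected, and 2 without CSKi replicate 2; median 0.08, and 0.04 without DMSO replicate 1 and 0.15 without CSKi replicate 1), and MYD88, which is often mutated in this lymphoma type, was at -0.03. Under quantile normalization the median of the Toll-like receptor list was -0.01. TLR9 (0.43 ± 0.05, corrected 0.24) and UNC93B1 (0.33 ± 0.04, corrected 0.14), which carries it to the endosome, rose, together with LY86 (0.69 ± 0.10) and IRAK3 (0.68 ± 0.09).

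Markers of other cell types were detected in part. Of the 13 T and NK cell markers, 4 passed the level of the rule, and their summed level was 606 to 624 reads per 1000000 mapped in DMSO and 595 to 615 in CSKi, nearly all of it GZMB (-0.01 ± 0.04). CD5, which some B cells carry (0.70 ± 0.08), and CD4 (1.13 ± 0.41) rose; CD4 rested on 17 to 35 reads and was not called without DMSO replicate 2 (0.78) or without CSKi replicate 1 (0.97). The 10 myeloid markers summed to 63.8 to 65.1 reads per 1000000 mapped in DMSO and 87.5 to 92.0 in CSKi, nearly all of it CD68 (0.51 ± 0.05), with CD14 and LYZ at no more than 3 reads in any library; ITGAM (0.74 ± 0.20) was not called without DMSO replicate 1 (0.58) or CSKi replicate 1 (0.52). The 10 fibroblast and epithelial markers summed to 124 to 134 reads per 1000000 mapped in DMSO and 175 to 185 in CSKi. Of these COL1A1, a collagen chain, rose (1.55 ± 0.10), with COL1A2 (0.89 ± 0.20) and CDH1 (0.30 ± 0.05). The part of these markers in other results was not tested.

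**Figure D4:**
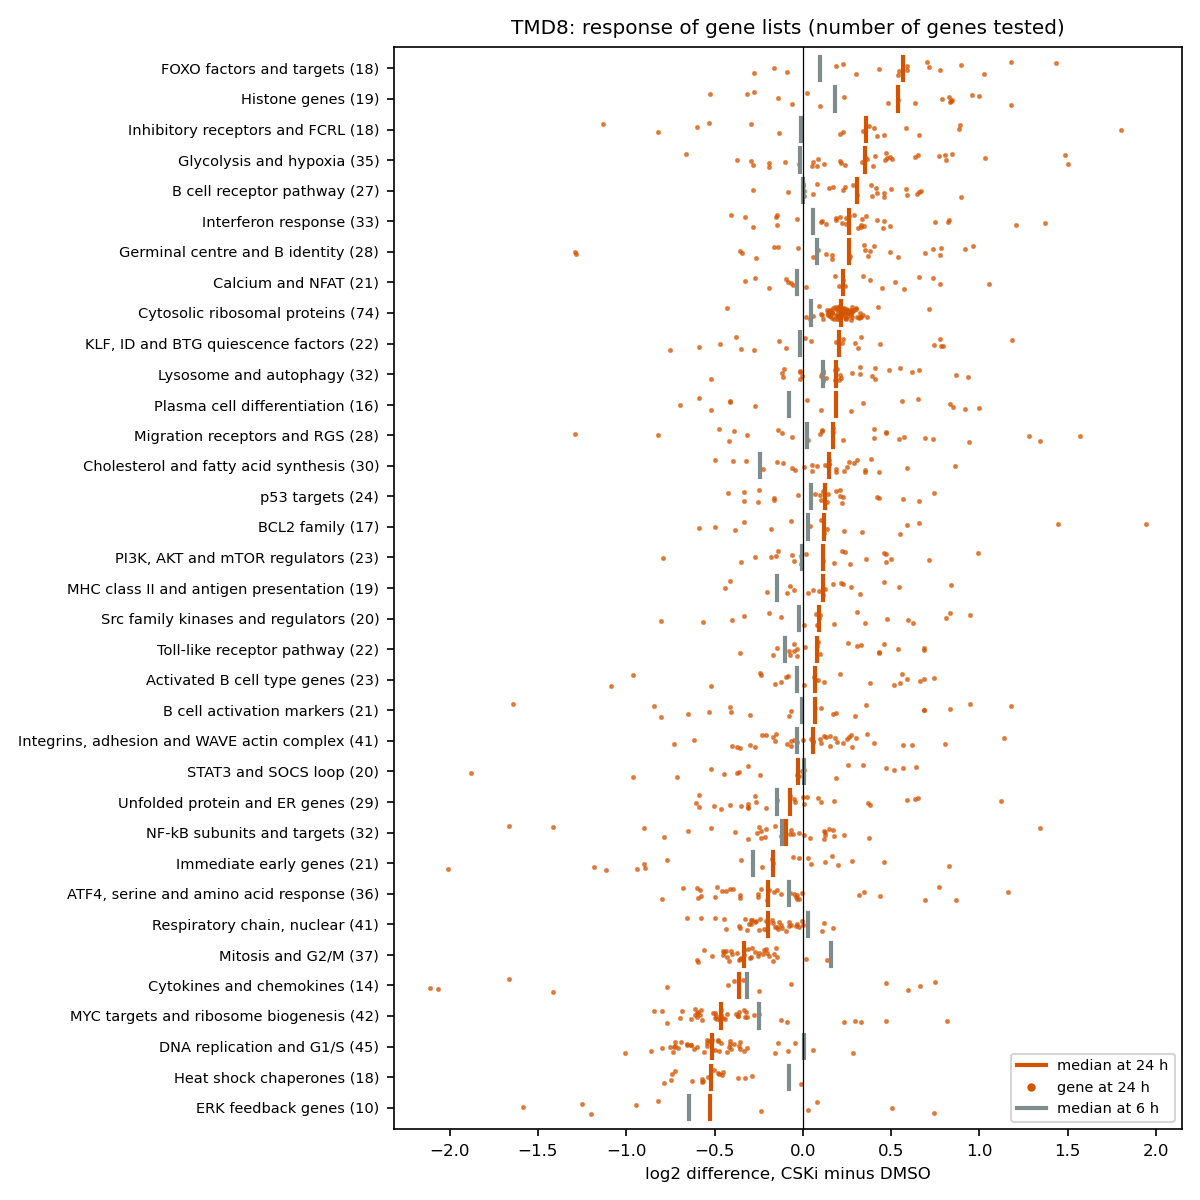
Log2 difference of CSKi minus DMSO for lists with at least 10 genes tested (number in brackets), ordered by their median at 24 h; orange points are genes and orange lines medians at 24 h, and grey lines medians at 6 h. FOXO targets (0.57) and histone genes (0.54) lie highest at 24 h. Their order was reversed with the GC content and length correction (0.55 and 0.64) and without DMSO replicate 1 (0.59 and 0.60). ERK feedback genes (-0.53), heat shock chaperones (-0.52) and replication genes (-0.51) lie lowest. With the correction the ERK list was at -0.43, above the cytokine (-0.50) and MYC target (-0.50) lists. Without CSKi replicate 1 the ERK list was at -0.37 and the cytokine list at -0.54.

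Most genes called at 24 h were not called at 6 h by the same test. A gene not called at 6 h may still have responded then. At 1 h limma called 6 of the 12000 features (0.05%), all lower. At 3 h it called 568 (4.73%), 177 higher (1.48%) and 391 lower (3.26%), and at 6 h 1518 (12.6%), 680 higher (5.67%) and 838 lower (6.98%), beside 6486 (54%) at 24 h. Of the 6462 genes called at 24 h, 5238 (81.1%) were not called at 6 h. The difference between the 2 responses was itself called in 3549 features (29.6%), 1852 (15.4%) higher at 24 h than at 6 h and 1697 (14.1%) lower, and in 2219 when the libraries of DOHH2 entered the fit. Against 3 h, 4320 features (36%) differed, 2212 (18.4%) higher and 2108 (17.6%) lower; scaling to total mapped reads gave 1819 higher and 2670 lower, and voom on recovered reads 1836 and 2693. From 6 to 24 h the DMSO libraries themselves differed in 4989 features (41.6%; 20.6% higher and 20.9% lower) and the CSKi libraries in 5864 (48.9%; 23.4% higher and 25.4% lower). Both differences use the same 24 h libraries, and each earlier time has its own DMSO libraries.

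Genes called at both times mostly kept their direction. Of 680 genes that rose at 6 h, 527 (77.5%) also rose at 24 h, where they were 15.8% of the 3330 that rose; of 837 that fell at 6 h, 552 (66.0%) fell at 24 h, 17.6% of the 3132 that fell. Another 103 genes fell at 6 h and rose at 24 h, 12.3% of the earlier and 3.09% of the later list, and 42 rose at 6 h and fell at 24 h, 6.18 and 1.34%. In all 145 of these genes the difference between the times was called.

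**Figure D5:**
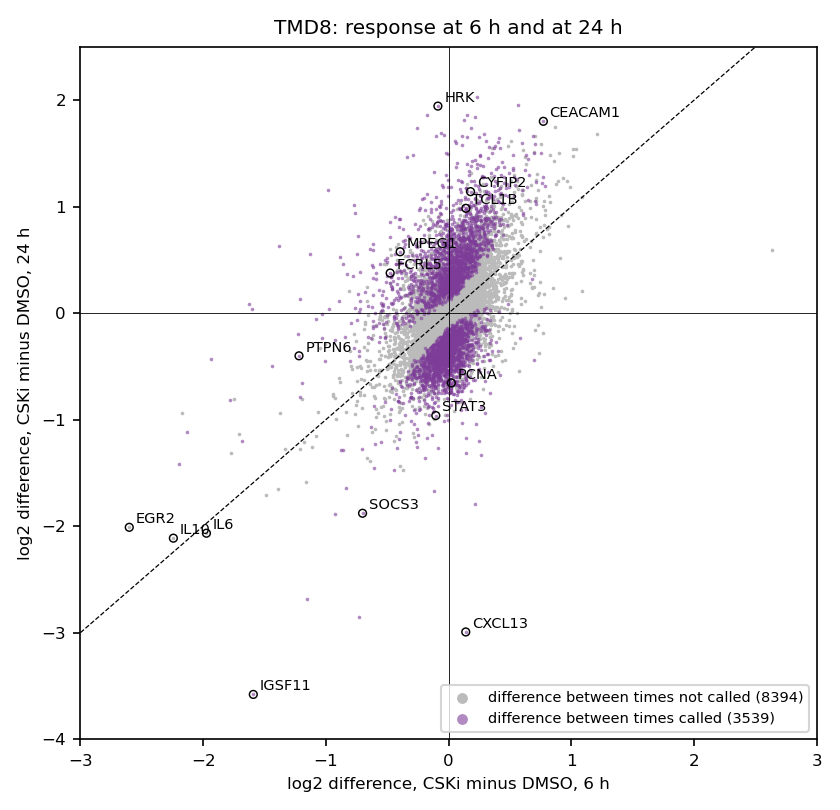
Log2 difference of CSKi minus DMSO at 24 h (vertical axis) against that at 6 h (horizontal axis) for 11933 genes, purple where the difference between the times was called (3539) and grey where it was not (8394); the dashed line marks equal responses. CXCL13 and HRK lie near 0 at 6 h and far from it at 24 h, and EGR2, IL10 and IL6 lie low at both times.

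Among early response genes, EGR2 and TNF were furthest below the vehicle at 3 h. The median of the immediate early list was -0.24 at 3 h, -0.28 at 6 h and -0.17 at 24 h, and that of the ERK list -0.58, -0.64 and -0.53. EGR2 was at -2.02 at 1 h, -4.51 at 3 h, -2.60 at 6 h and -2.01 at 24 h, and its response at 24 h was smaller than at 3 h by 2.49 (adjusted p = 1.2e-08 in limma). TNF went from -1.89 and -2.70 at 1 and 3 h to -2.19 at 6 h and -1.41 at 24 h, a difference from 6 h of 0.78 ± 0.17. DUSP2, at -1.68 at 6 h, differed by 0.48 ± 0.14, and CD83, at -1.20 at 6 h, by 0.55 ± 0.08. IL10 was at -2.24 at 6 h and -2.11 at 24 h, and IL6 at -1.97 and -2.07; neither difference was called (0.13 ± 0.21 and -0.09 ± 0.35), nor was that of MYC (-0.08 ± 0.08). In both arms these cytokine transcripts were more abundant at 24 h than at 6 h: IL10 by 1.55 in DMSO and 1.68 in CSKi, and IL6 by 1.09 and 1.00.

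Other genes responded further after 6 h, or were called at 24 h and not at 6 h. The response of CXCL13 was 0.14 ± 0.24 at 6 h, not called, and -2.99 ± 0.24 at 24 h. In DMSO it was 1.75 higher at 24 h than at 6 h, and in CSKi 1.38 lower, so both arms moved (-3.13 ± 0.34). The response of STAT3 was -0.10 ± 0.04 at 6 h, not called, and -0.96 ± 0.04 at 24 h. STAT3 rose by 0.40 in DMSO and fell by 0.45 in CSKi between the times (-0.86 ± 0.06). SOCS3 had fallen by 0.70 at 6 h and differed by a further -1.18 ± 0.10. The response of HRK was -0.09 ± 0.23 at 6 h, not called, and 1.95 ± 0.23 at 24 h. HRK was 1.66 higher at 24 h than at 6 h in CSKi, and its DMSO libraries were at -0.37, not called (2.03 ± 0.33). CEACAM1 showed the reverse arms: it fell by 0.99 in DMSO and was at 0.04 in CSKi, not called, which together gave 1.03 ± 0.10.

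The 6 genes of each direction with the smallest p for the difference between 6 and 24 h included both kinds of change. CYFIP2 (0.96 ± 0.05) and TCL1B (0.84 ± 0.05), a homologue of the AKT coactivator TCL1A, were higher at both times and more so at 24 h. MPEG1, a pore-forming protein of phagocytes and B cells (0.97 ± 0.04), FCRL5 (0.85 ± 0.05) and NAPSB, a transcribed pseudogene of an aspartic protease (0.79 ± 0.05), fell at 6 h, by 0.39, 0.48 and 0.26, and rose at 24 h. PTPN6 (0.82 ± 0.04) was lower at both times, by 1.22 at 6 h and 0.40 at 24 h. In the other direction were STAT3, PCNA (-0.68 ± 0.05), TYMS (-0.78 ± 0.06), the spermine synthase gene SMS (-0.77 ± 0.06), the tubulin gene TUBB (-0.62 ± 0.04) and H2AZ1 (-0.58 ± 0.05), none of them called at 6 h.

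Lists differed in what had happened by 6 h. Of 37 G2/M genes 16 had risen at 6 h, and 34 fell at 24 h; 35 of 37 were called lower at 24 h than at 6 h in their response. In the vehicle alone 35 of the 37 rose from 6 to 24 h, (median 0.37), and the median change in CSKi was -0.11. For replication genes the medians were 0.00 at 6 h and -0.51 at 24 h, with 39 of 45 called lower, and the vehicle median change was 0.16 and that in CSKi -0.38. Heat shock chaperones rose in vehicle in 18 of 18 cases (median 0.75), and in CSKi the median was 0.32; 14 of 18 responses were called lower at 24 h. MYC targets and ribosome biogenesis genes had already fallen in 31 of 42 cases at 6 h, (median -0.25), and reached 36 at 24 h. Of the 30 sterol and fatty acid genes 16 had fallen at 6 h and none risen, while 12 rose at 24 h, and 20 responses were called higher. B cell receptor genes had risen in 5 and fallen in 6 of 27 cases at 6 h, and 19 of the 27 responses were called higher at 24 h. Among ribosomal protein genes 56 of 74 responses were called higher at 24 h and 1 lower. Glycolysis and hypoxia genes rose in vehicle from 6 to 24 h in 34 of 35 cases (median 0.80), and in CSKi the median was 1.18. Of these 35 responses 18 were called higher at 24 h and 3 lower. ATF4 and amino acid response genes rose in vehicle in 30 of 36 cases and fell in 1 (median 0.29), and in CSKi the median was 0.23.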

How the data were processed

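RNA was purified with RNeasy columns and made into stranded TruSeq mRNA libraries read in pairs of 75 bases, per the labels' protocols. The authors deposited log2 values of counts multiplied by 1 factor per library. HTSeq and hg19 are named in the submitters' processing notes. For the aligner, the strand setting of HTSeq and the origin of the factor, nothing was stated (not given in the sources used here), so overlapping and antisense genes cannot be told apart. The first row, the total of mapped reads, was left out. Whole reads were recovered for 99.6 to 100% of values (within 0.1 reads, up to 300 reads), and the lowest feature tested averaged 20.6 reads. Because the file holds scaled log2 values, no count model was used. Group means of the 16 TMD8 libraries were fitted with limma 3.58.1 in R 4.3.3 (trended eBayes), with Benjamini-Hochberg adjustment over the 12000 features of highest mean. The fit was also run on simulated reads with few genes changed and no effect of GC content. That setting is simpler than these data, so it does not check the calls made here. Gene names were updated by Gene ID (21304 matched, 3918 renamed), and promoters came from RefSeq on GRCh38.p14, which lent no coordinates to the hg19 values. The genes given with values are the 15 widest rises and falls, up to 4 genes of each list with the smallest p, the 6 genes each way with the smallest p for the change from 6 h, and a few regulators; others were picked after their values were seen. A few genes chosen by this rule are not reported here. The members and lists were chosen with earlier results of these data known. Alternatives covered the filter, scaling, eBayes settings, voom on recovered reads, the samples in the fit, the replicate block, each replicate left out and, chosen after the data were seen, total mapped reads scaling and the GC content and length correction.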

Additional observations from a re-analysis of the deposited data

Results flagged for a closer look

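The test of the difference between times found 3549 features whose response at 24 h differed from that at 6 h, and 4320 whose response differed from that at 3 h. The genes with the smallest p against 6 h are given as the response at 24 h minus that at 6 h on the log2 scale. Higher at 24 h were MPEG1 (0.97), CYFIP2 (0.96), FCRL5 (0.85), TCL1B (0.84), PTPN6 (0.82) and NAPSB (0.79). Lower at 24 h were STAT3 (-0.86), TYMS (-0.78), SMS (-0.77), PCNA (-0.68), TUBB (-0.62) and H2AZ1 (-0.58). TCL1B has close paralogs and NAPSB is a pseudogene, so their reads may be shared with related genes.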

How the results depend on the processing

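Under the alternatives tried, the features called at 24 h numbered 5205 to 6540, beside 6486; requiring 1.5-fold as well left 1485. The change from 6 h was called in 2219 features, not 3549, with all 32 libraries in the fit. Leaving out 1 library gave 5241 to 6485 features at 24 h, 2742 to 4242 for the change from 6 h, 3430 to 4937 for the change from 3 h and 162 to 166 of the 170 named genes, 165 of which were called in the fit reported. Of 2719 values of single genes recomputed, 2694 kept direction and side of the threshold, 20 lost the call, 4 gained it and 1 reversed. The reversal was CSK, at -0.168 with the GC content and length correction; the cause was not tested. With all 32 libraries CD44, CD5, CDH1, CREB3L2, DUSP5, ETV4, IRAK3, IRF4 and ITGAM lost the call. List counts that moved by over 1.5 times are given beside them for some settings only. For example, the NF-kB list had 4 rises, not 8, with all 32 libraries in the fit. Same-numbered replicates deviated together little, with r from -0.160 to 0.166 over 28 pairs of groups. The highest r was that of DMSO and CSKi at 24 h, the 1 pair above 0.1. The labels tie the replicate numbers to no shared source, so these numbers were not taken to pair the libraries. With the replicate block 6523 features were called at 24 h, 3600 for the change from 6 h, 4370 for the change from 3 h and 166 named genes. With 2 libraries a group, genes with few reads were the least precise.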
